A study of Homo sapiens with 6 samples.

Results

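The cytosolic sulfotransferases are the enzymes that sulfonate small molecules such as phenols, catecholamines, thyroid hormones and steroids. The 8 genes described here were those whose symbols in the count table were SULT1A1, SULT1A2, SULT1B1, SULT1C2, SULT1C4, SULT1E1, SULT2A1 and SULT2B1, which made up 8 of the 60240 genes in the table. They were chosen by family name with their counts in the LSD1 KO and WT libraries known, so their differences between these groups are given as a description and without a p-value.

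Each enzyme takes a sulfonate group from the donor PAPS, which the cell makes from inorganic sulfate and ATP, and places it on a hydroxyl or amino group of the acceptor. The product is more soluble in water and is exported more easily, and a sulfonated hormone no longer binds its receptor. In the gut and liver this reaction disposes of drugs, dietary phenols and spent hormones, alongside glucuronidation.

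RNA-seq libraries were made from polyA RNA of HCT116, an established human colorectal carcinoma line, with 3 WT libraries and 3 LSD1 KO libraries. LSD1, encoded by KDM1A, removes methyl groups from lysine 4 of histone H3. The knockout was made with CRISPR/Cas9 by transient transfection and puromycin selection, after which single clones were grown out. The sources used here do not say which clone or clones gave the 3 LSD1 KO libraries, so clone and genotype cannot be told apart. The study's methods state in general that experiments had biological replicates, but neither they nor the labels say for these libraries whether the replicates were separate cultures, so p-values measure the spread between these libraries, which may be technical.

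Library totals ranged from 25379279 to 29186963 counts. Levels are given as CPM, counts scaled to a common library size with TMM factors, and a floor of 3 counts in a library corresponded to between 0.103 and 0.118 CPM. In the WT libraries KDM1A stood at 231, 224 and 214 CPM, and in the LSD1 KO libraries at 29.9, 27.6 and 27.8 CPM (edgeR q = 0.000451), and it was the 1 gene called at a q value under 0.1 without a replicate block. Of the 8 epithelial markers that were tested, KRT8 was the highest, with a WT mean of 1268 CPM, and EPCAM was lower in LSD1 KO (104 against 204 CPM, edgeR q = 0.0788 with the replicate number as a block), while over these 8 markers 3 had higher and 5 lower estimates and the median log2 fold change was -0.10. Markers of immune cells (PTPRC, CD3E) and hepatocytes (ALB, APOA1, TTR) did not exceed 0.341 CPM in any library. VIL1 did not exceed 0.302 CPM, and COL1A1, a fibroblast collagen gene, was higher in LSD1 KO (32.4 against 22.7 CPM, edgeR q = 0.0628 with the block). The summed level of all listed markers of other cell types, 2 of 10 tested, was 21.8 to 25.1 CPM in WT and 31.5 to 36.1 CPM in LSD1 KO, and that of the epithelial markers 2141 to 3990 and 2549 to 3377 CPM. The part of these markers in the results was not tested.

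Among the 8 sulfotransferases, 5 passed the filter on low counts and 3 did not. SULT1A1, SULT1A2, SULT1B1, SULT1C2 and SULT2B1 were tested. SULT1C4, SULT1E1 and SULT2A1 were at or near the floor in both groups, and no fold change is given for them. The summed level of all 8 ranged from 26.3 to 34.9 CPM in WT and from 32.8 to 38.2 CPM in LSD1 KO. In these bulk libraries, fewer cells expressing a gene and less RNA per cell cannot be told apart.

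Across the groups SULT1C2 was lower and SULT1A1 was higher in LSD1 KO. The ranges of the groups did not overlap for these 2 of the 5 genes tested, while 7.74% of all 17672 tested genes had ranges that did not overlap. SULT1A2, SULT1B1 and SULT2B1 had overlapping groups. At a q value under 0.1, edgeR called 0 of the 5 without a replicate block, where 0.00566% of all tested genes were called. In that fit 2 of the 5 had an unadjusted p under 0.05, as had 552 of all 17672 tested genes. With the replicate number as a block, 1 was called (SULT1C2, lower), where 0.549% of all tested genes were called lower, 1.05% higher and 1.6% in either direction. DESeq2 called SULT1C2, where 0.37% of genes were called, and DESeq2 with the block called SULT1C2 and SULT1A1, where 3.96% were called. Because this contrast chose the genes, these counts say nothing further about them.

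**Figure D1:**
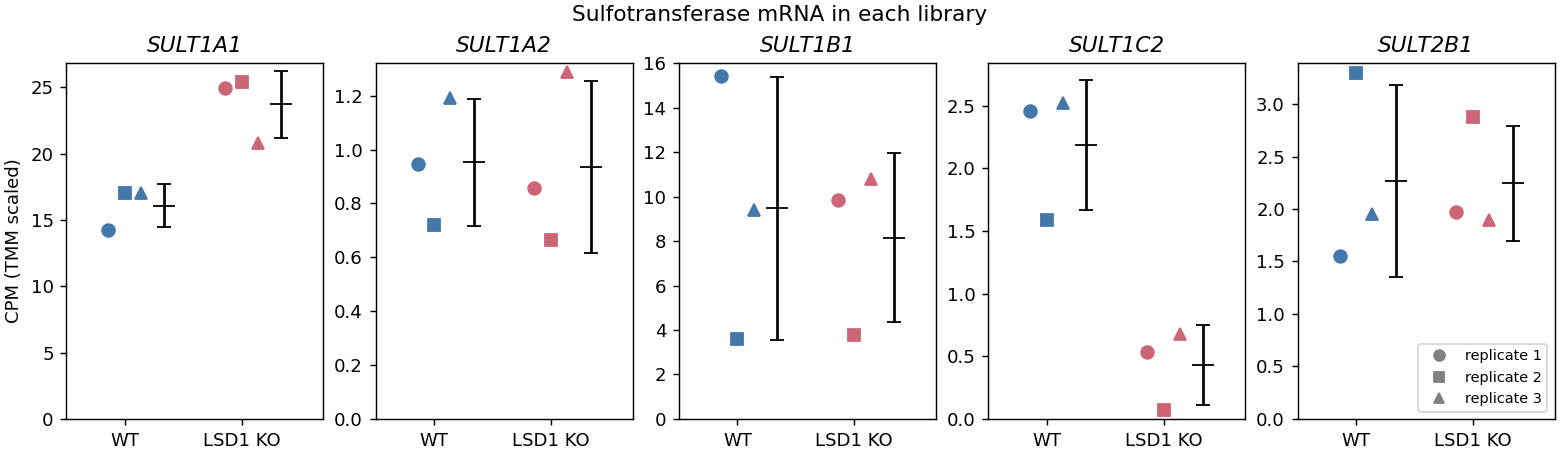
CPM (TMM scaled) of the 5 tested sulfotransferases in each library, with one panel and one linear axis from 0 per gene. Blue symbols are WT and red symbols LSD1 KO, circles, squares and triangles are replicates 1, 2 and 3, and the bars give the mean ± SD (n = 3). SULT1C2 lies between 0.0737 and 0.682 CPM in LSD1 KO and between 1.59 and 2.52 CPM in WT, and the squares of SULT1B1 lie below the other symbols in both groups.

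SULT1A1, the main enzyme for small phenols in adult tissues, lies on chromosome 16 (chr16:28605258-28623375 in GRCh38.p14). Its level was 14.2, 17.0 and 17.0 CPM in the WT libraries and 24.9, 25.4 and 20.8 CPM in the LSD1 KO libraries. Every LSD1 KO library was above every WT library. The means were 16.1 ± 1.62 CPM in WT and 23.7 ± 2.51 CPM in LSD1 KO (SD, n = 3), a log2 fold change of 0.56 with a standard error of 0.17. Within the pairs of libraries with the same replicate number, the log2 difference in CPM after adding 0.5 was 0.79, 0.56 and 0.29.

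SULT1A2, a neighbouring gene of the same phenol sulfotransferase group (chr16:28591943-28597050), was expressed far below SULT1A1. Its counts were 25, 19 and 36 in WT and 24, 18 and 34 in LSD1 KO. These correspond to means of 0.952 ± 0.237 CPM in WT and 0.936 ± 0.319 CPM in LSD1 KO (SD, n = 3). The groups overlapped almost wholly, with a log2 fold change of -0.03 and a standard error of 0.42.

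SULT1A1 and SULT1A2 are close copies, which limits how surely reads can be divided between them. Their coding sequences are both 885 bases long and are 96.8% identical, with 28 differing bases and a longest identical stretch of 128 bases. Of the 31-base words in the annotated SULT1A2 transcripts, 31.9% also occur in SULT1A1 transcripts, and 8.84% of the words of SULT1A1 occur in SULT1A2. Counting all other annotated genes, 32.8% of the words of SULT1A1 and 45.2% of those of SULT1A2 were shared. The largest share for SULT1A1, 16.6%, was with ENSG00000289755, a gene outside the family list. The summed level of both genes was 15.1, 17.8 and 18.2 CPM in WT and 25.8, 26.0 and 22.1 CPM in LSD1 KO, again without overlap. With the further copies SULT1A3 and SULT1A4 added, the groups overlapped. That sum was 21.8, 34.7 and 23.4 CPM in WT and 37.5, 42.8 and 29.5 CPM in LSD1 KO. The 60 coding bases from 394 to 453, counted from the start codon, hold the most differences among SULT1A1, SULT1A2 and SULT1A3 and are shown because reads over them can separate the copies. Capitals mark bases that differ from SULT1A1.
SULT1A1: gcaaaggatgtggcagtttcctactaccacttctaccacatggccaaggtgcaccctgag
SULT1A2: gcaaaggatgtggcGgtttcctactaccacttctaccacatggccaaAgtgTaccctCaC
SULT1A3: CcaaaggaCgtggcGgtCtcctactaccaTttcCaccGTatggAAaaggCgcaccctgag
In this window SULT1A2 differs from SULT1A1 at 5 bases and SULT1A3 differs at 11. The sequences were read from the GENCODE transcripts used here for lengths, and the window of SULT1A4 is identical to that of SULT1A3.

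SULT1A3 and SULT1A4 encode the same catecholamine sulfotransferase from duplicated loci on chromosome 16, and are not among the 8 genes. Their coding sequences are 100% identical, and 98.1% of the 31-base words of SULT1A4 are also in SULT1A3, so each gene's own value is uncertain. SULT1A3 stood at 5.29, 15.4 and 4.17 CPM in WT and at 8.98, 15.2 and 6.02 CPM in LSD1 KO. It was highest in replicate 2 of both groups. SULT1A4 had means of 1.29 ± 0.280 CPM in WT and 1.91 ± 0.768 CPM in LSD1 KO (SD, n = 3), with overlapping ranges. The table also lists the read-through genes SLX1A-SULT1A3 and SLX1B-SULT1A4 (67.6% and 67.1% of the words of SULT1A3 occur in them), which were looked up after the values of SULT1A3 were seen. Summed with these, SULT1A3 and SULT1A4 reached 44.3, 50.2 and 38.9 CPM in WT and 44.9, 44.1 and 44.8 CPM in LSD1 KO.

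SULT1B1, which sulfonates thyroid hormones and small phenols and is known from the intestine and liver, lies on chromosome 4 (chr4:69721167-69760620). Its level was 15.4, 3.60 and 9.41 CPM in the WT libraries and 9.87, 3.79 and 10.8 CPM in the LSD1 KO libraries. Replicate 2 was the lowest library of each group, and the groups overlapped. The means were 9.47 ± 5.91 CPM in WT and 8.15 ± 3.80 CPM in LSD1 KO (SD, n = 3). The log2 fold change was -0.22 with a standard error of 0.54, and -0.14 with a standard error of 0.20 when the replicate number was a block.

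The low level of SULT1B1 in replicate 2 was tested on the replicate number itself, a measure the choice of genes did not use. SULT1B1 was lower in replicate 2 than in the mean of replicates 1 and 3 by a log2 difference of -1.60 (standard error 0.23, edgeR F test of the replicate number, q = 0.00562). The ratio of replicate 2 to the mean of the other two libraries was 0.290 in WT and 0.367 in LSD1 KO, so both groups showed it. SULT1B1 was the 1 sulfotransferase of the 5 that was called. Over all tested genes the replicate number was called for 41.2%, and 19.1% were called with a lower level in replicate 2, so a call of this kind was common in these libraries. SULT2B1 went the other way in both groups (log2 difference 0.74, standard error 0.26, q = 0.129). SULT1C2 (-1.20, standard error 0.50, q = 0.195), SULT1A2 (-0.61, standard error 0.39, q = 0.321) and SULT1A1 (0.14, standard error 0.14, q = 0.701) did not pass either. SULT1A3 passed with a higher level in replicate 2 (1.38, standard error 0.19, edgeR q = 0.00498). Its own value is uncertain, as given above. In its sum with SULT1A4 and the read-through genes, replicate 2 was the highest library in WT but the lowest in LSD1 KO.

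Transcript length moved with the replicate 2 difference. The canonical SULT1B1 transcript is 7018 bases long, the longest of the family. Of the 31-base words of SULT1B1, 19.1% also occur in other annotated genes, and 0% in the rest of the family. All tested genes with a known transcript were divided by canonical transcript length into 5 classes of equal size. Among the 3492 genes in the shortest class (110 to 1427 bases), the median log2 difference of replicate 2 from replicates 1 and 3 was 0.25. Among the 3492 genes in the longest class (5265 bases and above) it was -0.29. SULT1B1 lay well below that median: 1.29% of the genes in the longest class were as low or lower, as were 2.30% of all tested genes. SULT1A2, with a transcript of 1031 bases, had a negative estimate (-0.61, not called) and so also lay below the median of its class, which was positive. The part of transcript length in these values was not tested. The median difference between LSD1 KO and WT was 0.01 in the shortest and 0.03 in the longest class.

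**Figure D2:**
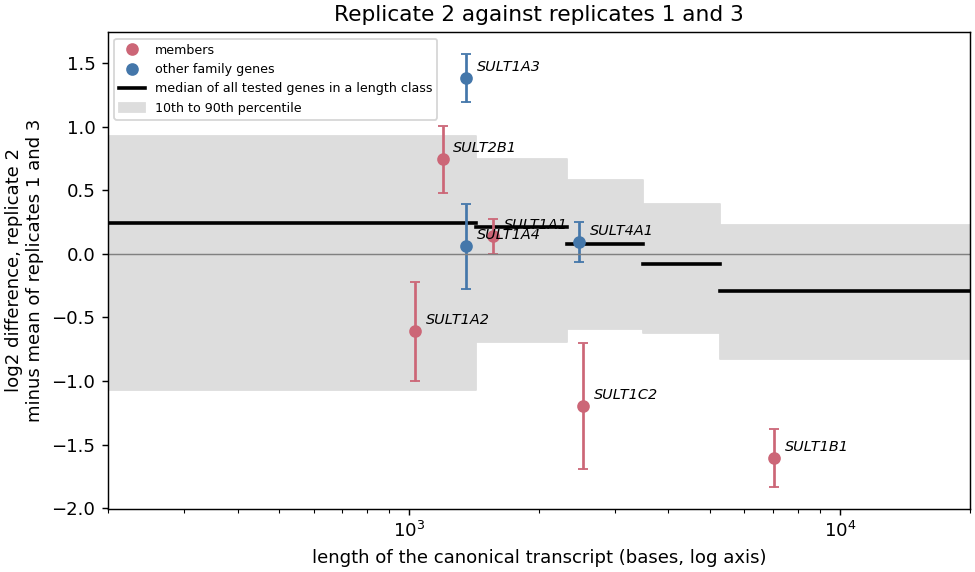
Log2 difference of replicate 2 from the mean of replicates 1 and 3 (y axis) against the length of the canonical transcript in bases (x axis, log scale). Red points are the tested sulfotransferases of the list, blue points other family genes, bars standard errors, black lines the median and grey bands the 10th to 90th percentile of all tested genes in each of 5 length classes. SULT1B1 at -1.60 and SULT1C2 at -1.20 lie below the bands, and SULT1A3 at 1.38 lies above.

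The 250 bases before the annotated start of SULT1B1 (RefSeq, chr4:69760621-69760870, minus strand) are shown because this gene, of the 5 tested, was called for the replicate number. They were searched on both strands for TATAAA, the letters of a TATA box. A match lies 29 bases before the start on the opposite strand, so it reads TTTATA here, in capitals. Whether it acts as a TATA box was not tested. Of the 35116 promoter windows of this length, 10.7% hold that motif. The window has 0 CpG sites and a GC content of 45.2%, against medians of 11 sites and 58% over all windows.
SULT1B1: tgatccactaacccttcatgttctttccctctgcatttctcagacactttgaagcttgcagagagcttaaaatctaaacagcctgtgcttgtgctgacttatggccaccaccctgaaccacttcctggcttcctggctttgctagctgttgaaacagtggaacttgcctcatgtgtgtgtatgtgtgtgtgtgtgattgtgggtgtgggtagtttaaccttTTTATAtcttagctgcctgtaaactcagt

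SULT1C2, an enzyme known from fetal tissues and from the stomach and kidney that acts on small phenols, lies on chromosome 2 (chr2:108288895-108309915). It was counted 65, 42 and 76 times in the WT libraries and 15, 2 and 18 times in the LSD1 KO libraries. The corresponding levels were 2.46, 1.59 and 2.52 CPM in WT and 0.536, 0.0737 and 0.682 CPM in LSD1 KO. Each LSD1 KO library was below every WT library, and replicate 2 of LSD1 KO was under the floor of 3 counts. The LSD1 KO mean was 0.431 ± 0.317 CPM against 2.19 ± 0.519 CPM in WT (SD, n = 3), and thus at 19.7% of it. This is a log2 fold change of -2.34 (standard error 0.63), and -2.48 (standard error 0.46) with the block. The pairs of libraries differed by -1.51, -1.87 and -1.35 on the log2 scale after adding 0.5 CPM. Only 0.0698% of the 31-base words of SULT1C2 occur in other cytosolic sulfotransferases, so its counts are little exposed to its relatives. Counting all other annotated genes, 4.09% of its words were shared. Without replicate 2 of LSD1 KO the log2 fold change was -1.86, and without replicate 3 of LSD1 KO it was -2.83.

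SULT1C4, the fetal relative of SULT1C2 on the same chromosome (chr2:108377954-108388989), was counted 4, 2 and 0 times in WT and 2, 0 and 3 times in LSD1 KO. It exceeded the floor in 1 of the 6 libraries. SULT1C3, which lies on the other side of SULT1C2, was at 0 in all 6 libraries. A count of 0 here allows up to the floor of each library, between 0.103 and 0.118 CPM, for counting error only.

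The windows before the starts of SULT1C2 (RefSeq, chr2:108288645-108288894, plus strand) and SULT1C4 (chr2:108377704-108377953, plus strand) are shown since SULT1C2 differed most between the groups and its neighbour was near the floor. The SULT1C2 window holds 1 AGGTCA, the half-site letters of nuclear receptors, 59 bases before the start, and 12.1% of all windows hold it. The SULT1C4 window holds TATAAA 140 bases before its start. Capitals mark these letters. The other motifs searched on both strands, TGANTCA (AP-1), GTTAAT (HNF1 half-site) and CACGTG (E-box), were not found in either window, and 6.57%, 6.23% and 6.34% of all windows hold them. The windows have 2 and 4 CpG sites, and 14.7% and 29.3% of all windows have fewer.
SULT1C2: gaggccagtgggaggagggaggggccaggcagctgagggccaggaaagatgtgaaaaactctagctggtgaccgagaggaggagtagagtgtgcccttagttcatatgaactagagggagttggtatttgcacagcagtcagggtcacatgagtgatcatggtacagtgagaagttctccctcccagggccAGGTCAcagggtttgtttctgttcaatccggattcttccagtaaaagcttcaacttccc
SULT1C4: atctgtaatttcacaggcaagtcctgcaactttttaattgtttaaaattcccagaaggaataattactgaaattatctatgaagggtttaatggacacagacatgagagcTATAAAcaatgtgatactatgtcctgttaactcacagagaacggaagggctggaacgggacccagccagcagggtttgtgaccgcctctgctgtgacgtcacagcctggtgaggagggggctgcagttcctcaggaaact

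Genes beside SULT1C2 had smaller differences. Of 6 protein-coding genes within 500 kb, 4 were tested, GCC2, LIMS1, RANBP2 and CCDC138, with log2 fold changes from -0.37 to 0.21, and edgeR called none of them without or with the block, with 0 at an unadjusted p under 0.05 without it. GCC2, a golgin of the trans-Golgi and the nearest tested gene, stood at 34.7 CPM in WT and 40.2 CPM in LSD1 KO (log2 fold change 0.21, standard error 0.24). All 4 were called for the replicate number, with a lower level in replicate 2, as were 19.1% of all tested genes.

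The genes whose levels followed SULT1C2 most closely over the 6 libraries were LINC02458, a long non-coding RNA, with Pearson r = 0.995, ACOT11, an acyl-CoA thioesterase, with r = 0.992, and HNF4A, a nuclear receptor of liver and gut epithelium, with r = 0.989. The r values were computed on log2 CPM among 14799 genes with a mean of at least 1 CPM. They describe 6 libraries in 2 groups that share depth and replicate number, and carry no test. HNF4A was counted 49, 49 and 62 times in WT and 16, 2 and 20 times in LSD1 KO, with means of 1.92 ± 0.116 and 0.468 ± 0.354 CPM (SD, n = 3). Its groups did not overlap, and its log2 fold change was -2.03 with a standard error of 0.63. In replicate 2 of LSD1 KO HNF4A, like SULT1C2, was under the floor of 3 counts. It was not called by edgeR without or with the block. LINC02458 had means of 4.39 ± 1.14 CPM in WT and 0.956 ± 0.637 CPM in LSD1 KO, and ACOT11 had means of 13.4 ± 1.09 and 7.97 ± 1.67 CPM (SD, n = 3). These genes were picked for the pattern of SULT1C2 over the same libraries, so their differences between the groups are a description as well.

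**Figure D3:**
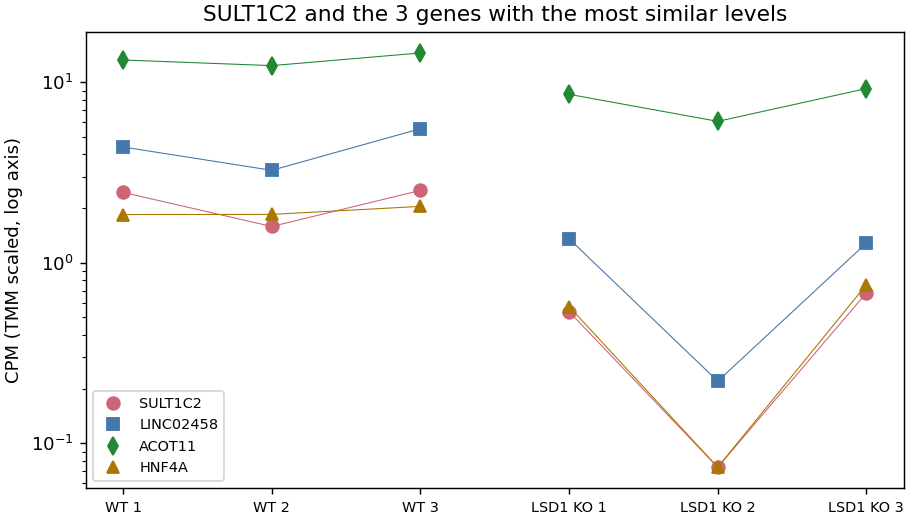
CPM (TMM scaled, log axis) of SULT1C2 and the 3 genes with the highest Pearson r to it, in each of the 6 libraries. Lines join the libraries of one group only to guide the eye. All 4 genes are lowest in replicate 2 of LSD1 KO, where SULT1C2 and HNF4A both stand at 0.0737 CPM.

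The steroid and estrogen enzymes were mostly silent. SULT1E1, the estrogen sulfotransferase (chr4:69821122-69860145), was counted 2, 0 and 2 times in WT and 0 times in every LSD1 KO library. SULT2A1, which sulfonates dehydroepiandrosterone and bile acids in liver and adrenal (chr19:47870467-47886315), was counted 2, 1 and 0 times in WT and 0, 1 and 1 times in LSD1 KO. Neither exceeded the floor in any library, so a difference was not detectable at this depth.

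SULT2B1, the cholesterol and pregnenolone sulfotransferase known from skin, was the steroid enzyme with measurable mRNA (chr19:48552172-48599427). Its level was 1.55, 3.29 and 1.95 CPM in WT and 1.97, 2.87 and 1.89 CPM in LSD1 KO. Replicate 2 was the highest library of each group. The means of 2.27 ± 0.913 CPM in WT and 2.24 ± 0.546 CPM in LSD1 KO (SD, n = 3) differed by a log2 fold change of -0.01 with a standard error of 0.38. Over the 6 libraries the log2 levels of SULT2B1 and SULT1B1 had a Pearson r of -0.99, with both genes set apart by replicate 2. The genes most like SULT2B1 were COX5B (r = 0.999), HYAL2 (r = 0.998) and SURF6 (r = 0.997). Those most like SULT1B1 were ATP9B (r = 0.998), EMSY (r = 0.997) and ANKRD26 (r = 0.996), and those most like SULT1A1 were DENND3-AS1 (r = 0.996), MCAM (r = 0.976) and DIPK1A (r = 0.974).

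SULT4A1, an enzyme of the brain whose substrates are not established, is a family gene outside the 8. It was measured with little spread, at 7.82, 8.10 and 7.32 CPM in WT and 8.69, 9.14 and 8.52 CPM in LSD1 KO. The groups did not overlap, and the log2 fold change was 0.18 with a standard error of 0.20 (edgeR q = 0.653 with the block). SULT6B1 was at 0 in all 6 libraries.

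**Figure D4:**
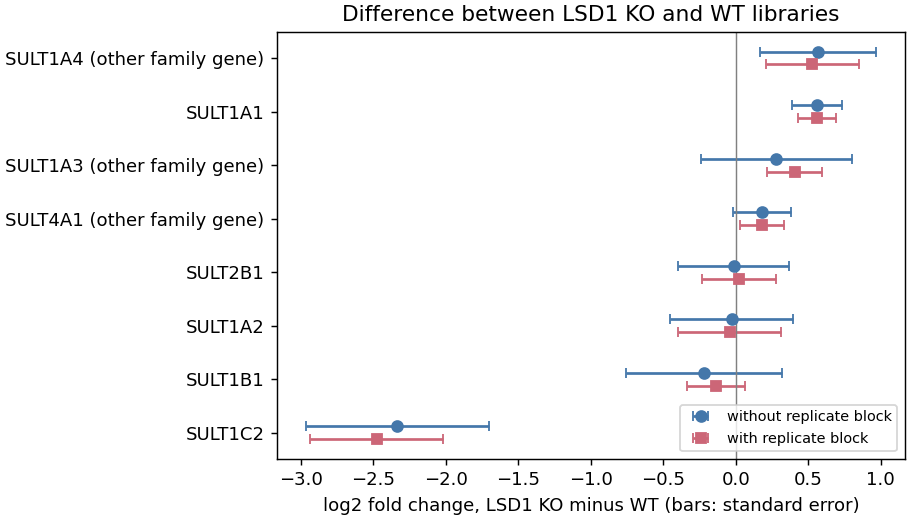
Log2 fold change of LSD1 KO against WT for the 8 tested family genes, with bars for the standard error. Blue circles are the fit without and red squares the fit with the replicate number as a block, and SULT1C2, at -2.34 and -2.48, lies apart from the other 7, which range from -0.22 to 0.57 without the block.

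Between genes, levels were compared as CPM per kilobase of the canonical transcript. SULT1A1 was first in both groups, with 10.2 ± 1.03 in WT and 15.1 ± 1.60 in LSD1 KO. In WT it was followed by SULT1A3 (6.12 ± 4.57), SULT4A1 (3.13 ± 0.159), SULT2B1 (1.89 ± 0.763), SULT1B1 (1.35 ± 0.842), SULT1A4 (0.951 ± 0.207), SULT1A2 (0.924 ± 0.230) and SULT1C2 (0.862 ± 0.204). The WT ranges of neighbours in this order overlapped except between SULT4A1 and SULT2B1. In LSD1 KO SULT1C2, at 0.170 ± 0.125 per kilobase, lay below the range of SULT1A2, the gene next above it. Per kilobase of coding sequence, SULT1B1 ranked 2 in WT with 10.7 ± 6.65, against rank 5 per kilobase of transcript.

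The donor PAPS depends on a second set of genes, from sulfate carriers to the enzymes that clear the by-product. The list of 16 genes used here also held SUOX, TST, MPST and CDO1, genes of wider sulfur metabolism. Of the 16, 14 were tested and edgeR called 0, without or with the block. Without the block, 0 had an unadjusted p under 0.05. With it, SLC26A6, a sulfate and anion exchanger named after its values were seen, had an unadjusted p of 0.0147 in edgeR (q = 0.236), with means of 47.7 ± 3.23 CPM in WT and 57.4 ± 3.45 CPM in LSD1 KO (SD, n = 3) and groups that did not overlap. Over the 14 genes log2 fold changes ranged from -0.17 to 0.32 with a median of 0.03, beside 0.0008 for all tested genes. PAPSS1, which makes PAPS, had means of 94.2 ± 14.8 CPM in WT and 92.2 ± 25.6 CPM in LSD1 KO. PAPSS2, the second PAPS synthase, stood at 36.1, 33.3 and 36.9 CPM in WT and at 35.7, 58.2 and 39.2 CPM in LSD1 KO. Its higher LSD1 KO mean rested on replicate 2, without which the log2 fold change was 0.06 in place of 0.32. The Golgi carriers of PAPS, SLC35B2 (64.0 ± 4.52 and 63.6 ± 2.15 CPM) and SLC35B3 (12.9 ± 0.517 and 12.0 ± 1.30 CPM), had overlapping groups, as had BPNT1 (34.4 ± 8.14 and 35.5 ± 7.42 CPM) and BPNT2 (126 ± 10.1 and 125 ± 12.3 CPM; SD, n = 3 throughout), which break down the by-product PAP. The replicate number was called for 5 of the 14, beside 41.2% of all tested genes, with a higher level in replicate 2 for PAPSS1, BPNT1, TST and MPST and a lower one for SLC26A2.

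Further genes of sulfur and conjugation pathways were also counted by list. Over all such lists 78 of 125 genes were tested, edgeR without the block called 0 and DESeq2 without the block called 0. In edgeR without the block, 4 of the 78 had an unadjusted p under 0.05, as had 552 of all 17672 tested genes. With the block, edgeR called 3, beside the 1.6% of all genes called in that fit. HS3ST1, a heparan sulfate 3-O-sulfotransferase of the Golgi, stood at 30.3, 53.8 and 46.0 CPM in WT and at 10.8, 32.1 and 16.9 CPM in LSD1 KO. It was lower in each of the 3 pairs, with a log2 fold change of -1.22 (standard error 0.16, edgeR q = 0.0181 with the block), although the groups overlapped. HS3ST3B1, another enzyme of this kind, was higher in each of the 3 pairs, with means of 5.60 and 9.98 CPM (log2 fold change 0.80, standard error 0.16, edgeR q = 0.0862 with the block). NR2F2, the nuclear receptor COUP-TFII from the list of regulators, fell from 262 ± 36.2 to 164 ± 28.0 CPM (SD, n = 3) without overlap (log2 fold change -0.69, standard error 0.09, edgeR q = 0.0216 with the block).

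Most members of those lists did not pass. Among Golgi sulfotransferases 26 of 37 were tested, with a median log2 fold change of -0.01, and 1 was called lower and 1 higher with the block. Of 19 sulfatases and related genes, which remove sulfate groups, 14 were tested, 0 were called by edgeR with the block and the median was 0.02. The list of glucuronidation genes, the other main conjugation route, had 2 tested genes, UGDH and UGP2, which make the donor, and none of the UDP-glucuronosyltransferases themselves passed the filter. Of 27 ligand-activated regulators 19 were tested, 1 was called with the block and the median was 0.09.

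Around all 8 loci, 72 of 110 protein-coding genes within 500 kb were tested and edgeR called 0 without the block. In that fit 2 of the 72 had an unadjusted p under 0.05, as had 552 of all 17672 tested genes. DESeq2 without the block also called 0. With the block edgeR called 2, beside 1.6% of all tested genes, and both were higher in LSD1 KO and near SULT2B1, where 40 of the 72 lie. GRIN2D, a glutamate receptor subunit, went from 59.2 to 81.5 CPM (q = 0.0933) and CGB2, a chorionic gonadotropin beta gene, from 2.77 to 5.38 CPM (q = 0.0983). SGF29 and EIF3C, on either side of SULT1A1 and SULT1A2, had log2 fold changes of 0.10 (standard error 0.29) and 0.06 (standard error 0.17), where SULT1A1 had 0.56. CRX (-0.14, standard error 0.42) and PLA2G4C (0.20, standard error 0.47) flanked SULT2A1, and LMTK3 (0.27, standard error 0.45) and FAM83E (-0.38, standard error 0.61) flanked SULT2B1. Around SULT1B1 and SULT1E1 the 15 other protein-coding genes within 500 kb were at most 0.358 CPM in any library, and SULT1B1 was the 1 gene of that stretch that passed the filter on low counts.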

How the data were processed

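PolyA RNA was sequenced from 3 WT and 3 LSD1 KO HCT116 libraries. Per the labels and the study's methods, the authors trimmed the reads with Trimmomatic 0.39, quantified them with Salmon 1.4.0 against GENCODE transcripts on GRCh38 and deposited unscaled expected counts for each gene, as whole numbers, in 1 table. How transcripts were summed to genes is not given in the sources used here.

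Symbols were matched for 58395 of 60240 genes. Counts were tested with edgeR 4.0.16 (R 4.3.3): TMM, filterByExpr by group (17672 genes), the quasi-likelihood test, Benjamini-Hochberg adjustment and a call at q under 0.1. The standard error of a log2 fold change was its size divided by the square root of F. The fit without a block was the main one. The script was tested on simulated data.

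Same-numbered libraries deviated together (r = 0.639, 0.631 and 0.491 over 17672 genes; different numbers, -0.606 to 0.0756), so the numbers from the titles were taken to pair the libraries, and a second model held them as a block. The labels do not state a pairing, and this choice rests on the same counts that the fits with the block used. Alternatives were other size factors, other filters, DESeq2 1.42.0, q under 0.05 and leaving out each library. Totals of 25379279 to 29186963 counts set a floor of 3 counts (0.103 to 0.118 CPM), which covers counting error only.

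Positions and promoter windows are from RefSeq tables on GRCh38.p14, and lengths and 31-base words from GENCODE transcripts on GRCh37, which are not the release the authors used. The genes and lists were chosen with earlier results of these data known. Named genes were the 8, other family genes, the PAPS synthases, carriers and phosphatases, list genes called without or with the block, the nearest tested genes and the 3 genes most alike for each of the 8 with a mean of at least 1 CPM. The study's ChIP-seq and methylation data were not analysed here.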

Additional observations from a re-analysis of the deposited data

How the results depend on the processing

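Without a block and with all 6 libraries, edgeR called 0 of the 5 tested sulfotransferases, 0 of 78 pathway genes and 0 of 72 genes beside them, and this held with upper quartile or RLE factors, under a filter of 10 counts per library, at q under 0.05 and with any 1 library left out. Without a filter on low counts it called 1 sulfotransferase (SULT1C2) and 1 pathway gene. The share of all genes called in that fit without a filter is not given here. DESeq2 called 1 sulfotransferase.

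The replicate block gave 1 sulfotransferase, 3 pathway genes and 2 genes beside them, and DESeq2 with the block gave 2, 5 and 3. Alternatives chosen after seeing the data were these. With the block and both replicate 2 libraries left out the counts were 2, 9 and 6. With the block and each library left out in turn they ranged from 1 to 2, from 1 to 10 and from 0 to 6. The highest counts came without replicate 2 of either group (10 pathway genes, 6 genes beside) and the lowest pathway count, 1, without WT replicate 3. The cause was not tested. The shares of all tested genes called in these fits with libraries left out are not given here. The counts therefore cannot be read as particular to these genes. SULT1A1 was called in 4 of 21 alternatives, and SULT1C2 in 11 of 20. These alternatives reused the same libraries and the contrast that chose the genes, so the tallies say nothing further about them.

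Log2 fold changes of SULT1C2 ranged from -2.92 to -1.86 and those of SULT1A1 from 0.43 to 0.70 over all alternatives. Those of SULT1B1 (-0.62 to 0.32), SULT2B1 (-0.25 to 0.35) and SULT1A2 (-0.33 to 0.17) changed sign when single libraries were left out. The replicate number was called for 1 sulfotransferase (SULT1B1), and for 2 (SULT1C2 as well) without a filter on low counts or, chosen after seeing the data, without WT replicate 2. With other libraries left out, it was called for 1. The shares of all genes called for the replicate number in these alternative settings are not given here. SULT1B1 had q values from 8.19e-12 to 0.00562 in all 13 settings, of which the change of threshold reused the main fit. Depth limits SULT1C4, SULT1E1 and SULT2A1, and SULT1C2 in LSD1 KO replicate 2.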
